A study of Bos taurus with 4 samples.

Results

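The genes described here were 10 cathepsins, grouped by name as lysosomal peptidases: CTSA, CTSB, CTSD, CTSF, CTSH, CTSK, CTSL, CTSS, CTSW and CTSZ. They were measured on bovine microarrays in the m. semitendinosus, a locomotor muscle of the hind limb. They were chosen by name: every probe whose accession the RefSeq gene table pairs with one of these symbols was taken, and probes named CTSL1 or CTSL2 counted as CTSL. This gave 31 probes of 43653 on the array and 10 genes of 11053 that could be named. The samples were muscles of 15-month-old bulls, 4 of the Hereford (HER) beef breed and 4 of the Holstein-Friesian (HF) dairy breed, with no treatment and no genetic alteration in either group. RNA of 1 HER bull and 1 HF bull was labelled with the dyes Cy3 and Cy5 and hybridised together on each of 4 dual-colour Agilent arrays. The number of arrays limits the precision of every value below.

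Cathepsins are known mainly as peptidases that degrade proteins delivered to the lysosome by endocytosis and autophagy. They are made as inactive precursors, are carried to the lysosome largely by mannose 6-phosphate receptors, and work in the acid interior that the vacuolar proton pump maintains. CTSA is a serine carboxypeptidase and CTSD an aspartic endopeptidase, while the other 8 are cysteine peptidases of the papain family, which cystatins inhibit. In skeletal muscle, cathepsins B, D and L are known for their part in autophagic protein turnover and, after slaughter, for tenderization of meat.

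All signed values are log2 ratios of Cy5 over Cy3, so that a positive value means a stronger signal in the Cy5-labelled bull. By the dye labels Cy3 carried HER and Cy5 carried HF on all 4 arrays, and a positive value would be higher in HF. The sample descriptions also remark on a dye swap, and the study's tables list CTSD and CTSF as higher in HER, which is the opposite breed. The breed behind each dye is therefore not settled here, and because all arrays had 1 orientation, dye and breed cannot be told apart. Across the arrays the median Cy5 signal was 129 to 160.5 and the median Cy3 signal 77 to 138, over a median background of 37 to 41. The log2 ratios, not the signals, of the arrays correlated with each other at r = 0.332 to 0.618 over the 32608 tested probes. Of 11 skeletal muscle markers 10 were measured, among them ACTA1, CKM and MYH1, with none called in either direction. The tissue was taken from the sample labels and was not tested. Since whole muscle was used, fewer cells of a type and less RNA per cell cannot be told apart.

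Of the 31 cathepsin probes, 30 had a channel that was well above background on each of the 4 arrays, and these were tested with limma in a fit of all 32608 probes that passed this filter. At a Benjamini-Hochberg adjusted p under 0.05, 4 probes were called higher in Cy5, where 1.96% of all tested probes were called higher, and 0 were called lower. These were 2 of the 3 CTSF probes and 2 of the 3 tested CTSW probes. The study's methods set a criterion of a fold change of 1.3 or more together with an unadjusted p no higher than 0.05. With limma's p in this criterion 12 cathepsin probes passed, all higher in Cy5, beside 7.96% of all tested probes higher by it. With p from the methods' own test 7 cathepsin probes passed, all higher in Cy5, beside 2887 of all 32608 probes in either direction. Below, the methods criterion was taken with limma's p unless another test is named. At limma's unadjusted p under 0.05 alone there were 14, all higher in Cy5, beside 13.8% of all tested probes. Of the 4 calls, 1 was left without array 1 and 0 without array 2, 3 or 4. Over all 32608 probes, 1078 were called in either direction with all arrays. Without array 1, 2, 3 or 4 these were 115, 38, 5 and 5. Without array 3, 7 of 30 probes passed the methods criterion, beside 4702 of all 32608 in either direction. The 4 Cy5 bulls lay above all 4 Cy3 bulls for 12 cathepsin probes, compared with 7.68% of all tested probes, and the opposite held for 0. Because CTSD and CTSF are in a list of protein metabolism genes that the study chose on these samples, their part in these counts is not independent evidence of direction.

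**Figure D1:**
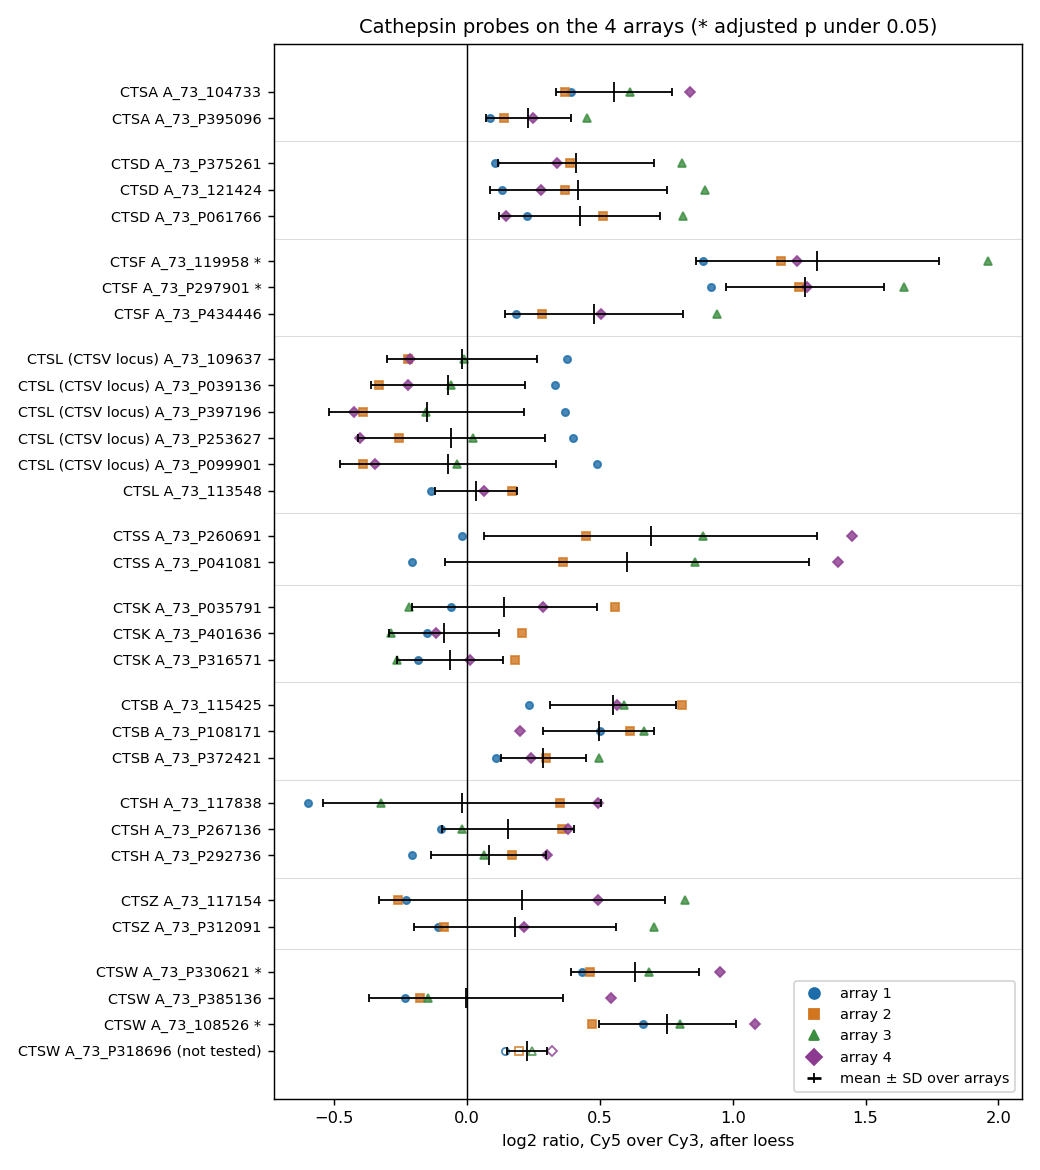
Horizontal axis, the log2 of Cy5 over Cy3 for each of the 31 cathepsin probes (rows, grouped by gene, brightest probe of a gene first), with 1 point per array and the mean with its SD. All 3 probes each of CTSD, CTSF and CTSB and both probes of CTSA lay above 0 on all 4 arrays, while CTSL, CTSK, CTSH and CTSZ had arrays on both sides of 0.

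With each gene taken by its brightest probe, CTSF and CTSW were called, which is 2 of 10 genes beside 4.42% of the 9425 genes tested called in either direction. With limma's p the methods criterion took 6 of the 10, CTSA, CTSB, CTSD, CTSF, CTSS and CTSW, beside 10.6% of all genes higher by it. With p from the methods' own test CTSD and CTSS did not pass it on their brightest probes. The ratio was above 0 on all 4 arrays for 5 of the 10 genes, and for 20.4% of all genes. The median log2 ratio of the 10 genes was 0.48, with a range of -0.02 to 1.32, and the median of all genes was 0.02. On the single arrays the median of the 10 genes was 0.17, 0.42, 0.65 and 0.53. Array 1 thus had the smallest median difference between its bulls, and it held 6 cathepsins above 0, while array 4 held 9.

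CTSF, a papain-family endopeptidase that also trims the invariant chain of MHC class II in macrophages, had the greatest difference of the family. On its brightest probe (A_73_119958) the log2 level was 12.56, 12.56, 12.60 and 12.37 in the Cy3 bulls of arrays 1 to 4 and 13.44, 13.74, 14.56 and 13.61 in the Cy5 bulls. The Cy3 bulls lay close together, every Cy5 bull was above them, and the bull of array 3 stood highest. The ratios of 0.89, 1.18, 1.96 and 1.24 gave a mean of 1.32 ± 0.46 (SD, n = 4), which is 2.49-fold (adjusted p = 0.0331, limma).

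The next probe (A_73_P297901) read 0.92, 1.25, 1.64 and 1.28, with a mean of 1.27 ± 0.30 (SD, n = 4) and an adjusted p of 0.0226. Both probes thus gave the same order of arrays 1 and 3 as lowest and highest. The dimmest probe (A_73_P434446) gave 0.19, 0.28, 0.94 and 0.50, with a mean of 0.48 and an adjusted p of 0.107. Its raw Cy3 signals were 59 to 89 over a background of 37 to 45, and its mean rose to 0.94 (adjusted p = 0.0456) when the background was subtracted outright. The bright probe exceeded the dim one by 0.84 on the log2 scale, with an exact two-sided sign-flip p of 0.125, the smallest that 4 arrays allow. Both bright probes were called under every alternative with all 4 arrays except the methods' t-test. When array 1 was left out, A_73_P297901 was still called (adjusted p = 0.0448). The brightest probe lost its call without any 1 of the arrays, at adjusted p values of 0.0589 to 0.108.

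**Figure D2:**
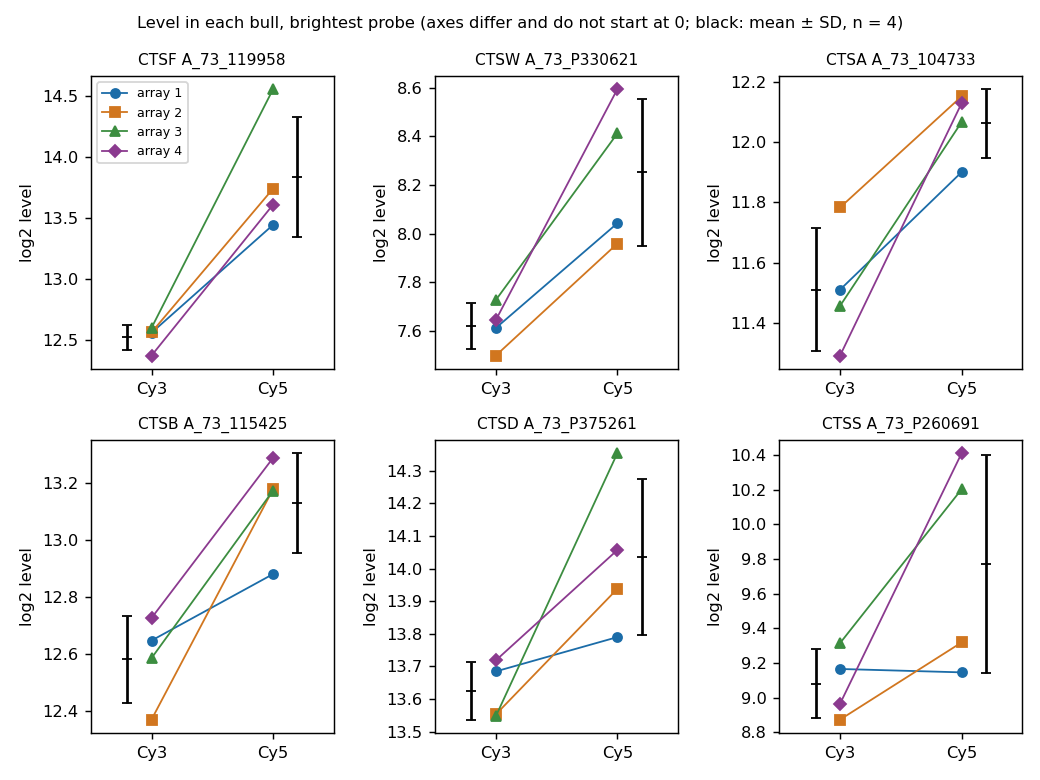
Log2 level (vertical axes, which differ between panels and do not start at 0) in the Cy3 bull and the Cy5 bull of each array, joined by a line, for the brightest probe of 6 cathepsins, with the mean and SD of each dye beside the points (n = 4). The 4 Cy5 bulls lay above the 4 Cy3 bulls in every panel except that of CTSS, where array 1 had a difference of -0.02.

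CTSW, a papain-family member whose expression is known mainly from natural killer and cytotoxic T cells, was the other gene called, but its probes differed among themselves. On the brightest probe (A_73_P330621) the Cy3 bulls had log2 levels of 7.61, 7.50, 7.73 and 7.64 and the Cy5 bulls 8.04, 7.96, 8.41 and 8.59. The bulls did not overlap, and the Cy5 bulls of arrays 3 and 4 were highest. Ratios of 0.43, 0.46, 0.69 and 0.95 gave a mean of 0.63 ± 0.24 (SD, n = 4), 1.55-fold, with an adjusted p of 0.0471. Another probe (A_73_108526) gave 0.66, 0.47, 0.80 and 1.08, with a mean of 0.75 ± 0.26 (SD, n = 4) and an adjusted p of 0.0401. That probe was dim in Cy3, and its mean was 1.38 with plain subtraction of the background and 1.57 from the scanner's processed signals.

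The third CTSW probe (A_73_P385136) did not share this pattern. Its ratios were -0.23, -0.18, -0.15 and 0.54, with a mean of 0.00 and an adjusted p of 0.989, and the bulls overlapped. Probe A_73_108526 exceeded it on every array, by 0.76 on average and by 0.54 to 0.95 (exact two-sided sign-flip p = 0.125, the smallest that 4 arrays allow). The fourth probe (A_73_P318696) was well above background in Cy5 on 2 of 4 arrays and in Cy3 on 0 of 4. It was not tested, and no fold is given for it. In the RefSeq assembly ARS-UCD2.0 CTSW lies inside the span of FIBP, whose own probes had log2 ratios of -0.10 and -0.31, neither called, and which gene each CTSW probe reads was not tested. The call of the brightest CTSW probe was lost with no filter on dim probes (adjusted p = 0.0528), with the mean over all probes of the gene (adjusted p = 0.0768), with the methods' t-test and without any 1 of the arrays (adjusted p = 0.0701 to 0.132).

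CTSA, the serine carboxypeptidase that also stabilises lysosomal β-galactosidase and neuraminidase in a complex, did not pass the adjusted threshold. On its brightest probe (A_73_104733) the Cy3 bulls had log2 levels of 11.51, 11.78, 11.46 and 11.29 and the Cy5 bulls 11.90, 12.15, 12.07 and 12.13. The lowest Cy5 bull was above the highest Cy3 bull. The mean ratio was 0.55 ± 0.22 (SD, n = 4), from single values of 0.39, 0.37, 0.61 and 0.84, with an adjusted p of 0.0528. The dimmer probe gave a mean of 0.23 (adjusted p = 0.192), also above 0 on each array. With the stricter filter on dim probes, under which fewer probes were tested, the brightest CTSA probe was called (adjusted p = 0.0496), and it was called with the separate-channel fit (adjusted p = 0.0167).

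CTSD, the main aspartic peptidase of lysosomes, had 3 probes with means of 0.41, 0.42 and 0.42, none called. On the brightest (A_73_P375261) the Cy3 bulls had log2 levels of 13.68, 13.55, 13.55 and 13.72 and the Cy5 bulls 13.79, 13.94, 14.35 and 14.06. The bulls did not overlap, although the gap between the highest Cy3 bull and the lowest Cy5 bull was small. Ratios of 0.11, 0.39, 0.81 and 0.34 gave a mean of 0.41 ± 0.29 (SD, n = 4), 1.33-fold, with an adjusted p of 0.120. The array 3 value was the highest on all 3 CTSD probes, as on all 3 CTSF probes. The 3 probes passed the methods criterion with limma's p but not with the methods' own test, and on A_73_P061766 the bulls overlapped.

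CTSB, a cysteine peptidase that removes dipeptides from the carboxyl end of proteins and is abundant in many tissues, was close to the threshold on its brighter probes. On the brightest (A_73_115425) the Cy3 bulls had log2 levels of 12.65, 12.37, 12.59 and 12.73 and the Cy5 bulls 12.88, 13.18, 13.17 and 13.29. The bulls did not overlap, and the smallest difference was again on array 1. Ratios of 0.23, 0.81, 0.59 and 0.56 had a mean of 0.55 ± 0.24 (SD, n = 4) and an adjusted p of 0.0565. The other 2 probes had means of 0.49 (adjusted p = 0.0589) and 0.29 (adjusted p = 0.128), with all 4 arrays above 0 on both. CTSB was called when all probes of a gene were averaged (adjusted p = 0.0486) and with the separate-channel fit (adjusted p = 0.0174).

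CTSS, a cysteine endopeptidase of antigen-presenting cells that stays active at neutral pH, had the largest SD over arrays of the 10 genes by their brightest probes. The Cy3 bulls had log2 levels of 9.17, 8.87, 9.31 and 8.96 on the brightest probe (A_73_P260691) and the Cy5 bulls 9.15, 9.32, 10.20 and 10.41. The Cy5 bulls of arrays 3 and 4 stood above all others, while that of array 1 lay among the Cy3 bulls. The ratios were -0.02, 0.45, 0.89 and 1.45, with a mean of 0.69 ± 0.63 (SD, n = 4) and an adjusted p of 0.143, and the mean was 0.44 without array 4. The other probe followed the same pattern, with -0.21, 0.36, 0.86 and 1.39 and an adjusted p of 0.217. The spread over arrays was thus nearly as large as the mean on the first probe, and larger on the second.

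CTSK, the collagen-degrading cathepsin of osteoclasts and some fibroblasts, is the chromosomal neighbour of CTSS in the table's assembly, with 1 gene between them. Its brightest probe (A_73_P035791) gave -0.06, 0.56, -0.22 and 0.28, with a mean of 0.14 ± 0.35 (SD, n = 4) and an adjusted p of 0.602. Leaving out single arrays gave means of 0.0011 (array 2) to 0.26 (array 3). The other 2 probes had means of -0.09 and -0.07. The bulls overlapped on all 3 probes, the signs of the means were mixed, and the 95% interval of the brightest probe was -0.21 to 0.49.

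CTSL, the broadly expressed endopeptidase that is best known in wasting muscle, needs its probes set apart. The table gives 5 of its 6 probes to a locus now named CTSV, with CTSL, CTSL1 and CTSL2 among the older names, and 1 to the locus now named CTSL. On the brightest probe of the CTSV locus (A_73_109637) the Cy3 bulls had log2 levels of 10.55, 10.85, 10.73 and 10.47 and the Cy5 bulls 10.93, 10.62, 10.72 and 10.25. The bulls overlapped, and array 1 alone was clearly above 0. The ratios were 0.38, -0.22, -0.01 and -0.22, with a mean of -0.02 ± 0.28 (SD, n = 4), an adjusted p of 0.946 and a 95% interval of -0.32 to 0.28. The other 4 probes of that locus had means of -0.06 to -0.15, each with array 1 as the highest. The probe of the CTSL locus (A_73_113548) had values on 3 arrays, -0.14, 0.17 and 0.06, since the spot of array 3 carried an outlier mark. Its mean was 0.03 (adjusted p = 0.891), and it was well above background in Cy3 on 2 of 4 arrays.

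CTSH, an aminopeptidase of the papain family that processes surfactant protein in lung, had 3 probes with means of -0.02, 0.15 and 0.08, none called. The brightest (A_73_117838) gave -0.60, 0.35, -0.32 and 0.49, with an SD of 0.52 and an adjusted p of 0.965. The Cy5 bulls ranged from 10.47 to 11.21 and the Cy3 bulls from 10.31 to 11.21, so that they overlapped almost entirely.

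CTSZ, a carboxypeptidase that removes single residues and is prominent in monocytes and macrophages, was measured by 2 probes. The brightest (A_73_117154) gave -0.23, -0.26, 0.82 and 0.49, with a mean of 0.21 ± 0.54 (SD, n = 4) and an adjusted p of 0.591. Without array 3 its mean was 0.00051, without array 4 it was 0.11, and without array 1 or 2 it was 0.35 or 0.36. Arrays 1 and 2 were below 0 and arrays 3 and 4 above it on both probes. The second probe had a mean of 0.18, and the 95% interval of the first was -0.30 to 0.71, which includes the means of CTSA, CTSB, CTSD, CTSS and CTSW.

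The rest of the lysosome was read from 9 lists of genes outside the family, with 111 genes, of which 88 were named on the array and 86 were tested. By the brightest probe 1 of the 86 was called higher in Cy5 and 0 lower, beside 4.42% of all genes called in either direction. The methods criterion took 11 of the 86, all higher, beside 10.6% of all genes. The median log2 ratio of the 86 genes was 0.09. The gene called was GLB1, the lysosomal β-galactosidase held in a complex with CTSA, with ratios of 0.49, 0.63, 0.43 and 0.92, a mean of 0.62 ± 0.22 (SD, n = 4), an adjusted p of 0.0441 and 2 of its 3 probes called. No gene of these lists was called when any 1 of the arrays was left out, where 5 to 115 of all 32608 probes were called.

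Among relatives and inhibitors, CTSC, the dipeptidyl peptidase that activates granule serine proteases, gave 0.06, 0.51, 0.46 and 0.61, with a mean of 0.41 ± 0.24 (SD, n = 4) and an adjusted p of 0.0946. It passed the methods criterion but not the adjusted threshold. The cysteine peptidase inhibitors CST3 and CST6 had means of 0.10 ± 0.48 and -0.18 ± 0.56 (SD, n = 4 each), with arrays on both sides of 0. CSTA was on the array but did not pass the filter on dim probes.

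By class, 0 of 6 other lysosomal peptidases, 1 of 26 glycosidases, sulfatases, lipases and other hydrolases, 0 of 15 membrane proteins, 0 of 18 subunits of the vacuolar proton pump and 0 of 14 sorting factors were called. Their medians were -0.07, 0.09, 0.16, 0.06 and 0.01. Among all genes tested 4.42% were called in either direction. Of the genes that govern lysosome formation, TFE3, MITF and FLCN were tested and had means of 0.37 ± 0.46, -0.20 ± 0.22 and 0.15 ± 0.24 (SD, n = 4 each), none called. No probe was named for TFEB.

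**Figure D3:**
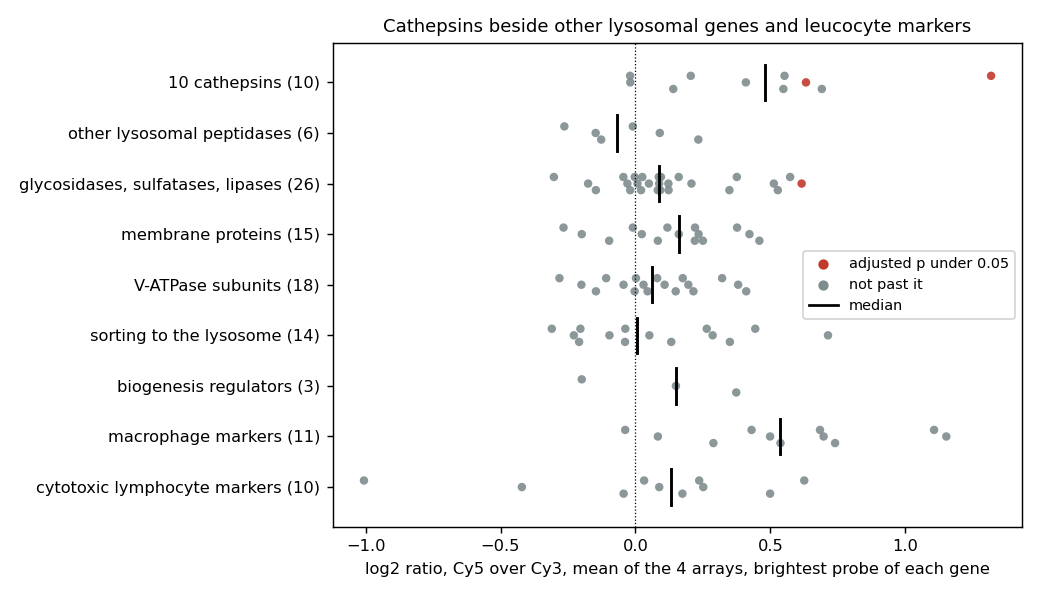
The horizontal axis gives the mean log2 ratio over the 4 arrays, Cy5 over Cy3 on the brightest probe of each gene, for the 10 cathepsins, 6 lists of other lysosomal genes and 2 lists of leucocyte markers, with 1 point per gene and a bar at the median of each row. The cathepsins had a median of 0.48 with CTSF farthest to the right, and the 6 other lysosomal lists shown had medians of -0.07 to 0.16. The macrophage markers had a median of 0.54 and the cytotoxic lymphocyte markers a median of 0.13.

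Markers of other cells that muscle contains were read beside the cathepsins. Of 13 macrophage markers 11 were measured and 0 were called, beside 4.42% of all genes called in either direction. By the methods criterion 7 passed, all higher in Cy5, beside 10.6% of all genes higher by it. The median log2 ratio of the 11 was 0.54. The first 3 of that list, CD68, CD163 and CD14, had means of 0.08, 0.50 and -0.04, none called. The summed macrophage level was 7524 to 16739 in the Cy5 bulls and 4175 to 6815 in the Cy3 bulls, without overlap. On single probes, all Cy5 bulls lay above all Cy3 bulls for 7.68% of those tested. The log2 ratio of the macrophage sum was 0.14, 1.25, 0.67 and 1.41 on arrays 1 to 4. CTSS and the macrophage sum were both lowest on array 1 and highest on array 4, as were CTSC and CTSW on its brightest probe. Arrays 2 and 3 had the opposite order, with 0.45 and 0.89 for CTSS and 1.25 and 0.67 for the sum. CTSF was lowest on array 1 and highest on array 3. The part of macrophages in the values of CTSS, CTSF, CTSB, CTSA and CTSD was not tested.

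For cytotoxic lymphocytes, known as the main source of CTSW, 10 of 12 markers were tested and 0 were called, beside 4.42% of all genes. KLRD1 and NCR1 did not pass the filter on dim probes. The first 3 of the list disagreed, with means of 0.03 for CD2, -1.01 for CD3D and 0.63 for CD3E. Of the 10 tested, 2 passed the methods criterion higher in Cy5, beside 10.6% of all genes, and 1 passed it lower. Above 0 were 7 of the 10, and the median of all 10 was 0.13. Their summed level was 3725 to 7301 in the Cy5 bulls and 6798 to 9605 in the Cy3 bulls, which overlapped, and its log2 ratio was 0.10, -1.03, -0.48 and -1.37. On arrays 2, 3 and 4 the sum was lower in Cy5 and CTSW on its brightest probe was higher. The sum adds linear levels, so the brighter markers weigh most. CD3D (0.08, -1.34, -0.75 and -2.02) and GZMA (0.11, -0.68, -0.22 and -0.90) had the signs of the sum on each array. CD3E, CD3G, CD8A, CD8B and NKG7 were above 0 on all 4 arrays, and CD2, GZMB and PRF1 had arrays on both sides of 0. The part of lymphocytes in the CTSW values was not tested.

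Of 9 fibroblast markers 2 were called, the collagens COL1A1 and COL3A1, both lower in Cy5, beside 4.42% of all genes in either direction. By the methods criterion 4 of the 9 passed, all lower in Cy5, beside 4707 of all 32608 probes in either direction. Of the 9, 5 were above 0, with a median of 0.00. COL1A1 and COL3A1 were named after their values were seen. The first 3 of the list, DCN, LUM and PDGFRA, had means of 0.42, -0.77 and 0.49, none called. The summed level was 41097 to 70036 in the Cy5 bulls and 65446 to 113920 in the Cy3 bulls, which overlapped. Its log2 ratio was -1.16, 0.10, -0.78 and -0.72 on arrays 1 to 4. CTSK, which fibroblasts can express, had arrays on both sides of 0. The summed muscle fibre markers were 2089009 to 2257542 in the Cy5 bulls and 1680763 to 1973501 in the Cy3 bulls. They did not overlap, where 7.68% of all tested probes, taken singly, had all Cy5 bulls above all Cy3 bulls. The log2 ratios of the fibre sum were 0.29, 0.34, 0.08 and 0.36. The part of fibroblasts and muscle fibres in the cathepsin values was not tested. Of 4 adipocyte markers tested 0 were called and 1, FABP4, passed the methods criterion, lower in Cy5. The summed adipocyte level had log2 ratios of -2.01, -0.14, -0.30 and -0.87, with 445.5 to 1071 in the Cy5 bulls and 489.6 to 4310 in the Cy3 bulls. Of 3 neutrophil markers tested 0 were called and 1, S100A8, passed the criterion higher in Cy5, beside 10.6% of all genes. The log2 ratios of the neutrophil sum were 0.67, 0.64, -0.15 and 0.04. The markers tested for B cells (2), endothelium (4) and erythroid cells (2) included 0 calls and 0 past the criterion. The part of these cells was not tested.

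**Figure D4:**
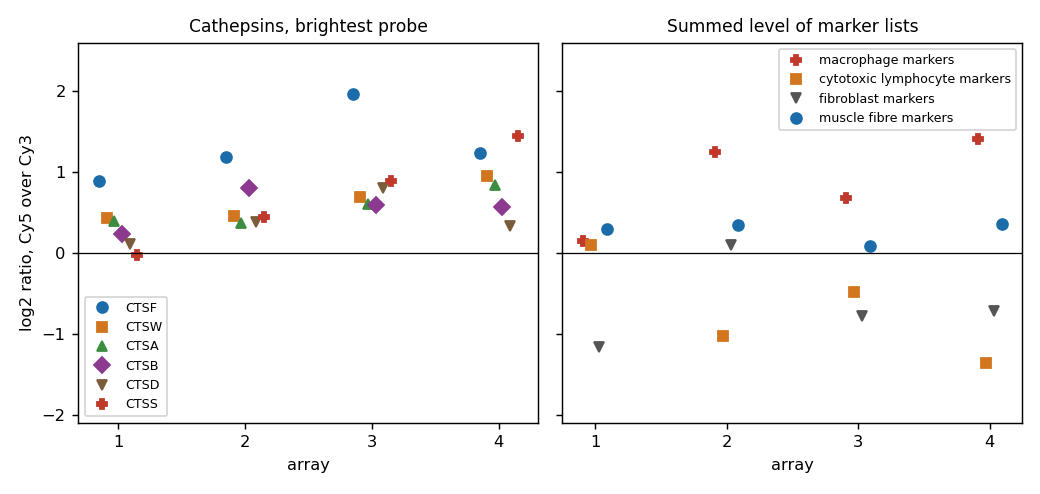
Log2 ratio of Cy5 over Cy3 (vertical axis) on each of the 4 arrays (horizontal axis, points set slightly apart for sight) for the brightest probe of 6 cathepsins (left) and for the summed level of 4 marker lists (right). CTSS went from -0.02 on array 1 to 1.45 on array 4, the macrophage sum was 0.14 and 1.41 on these arrays, and the lymphocyte sum was 0.10 and -1.37. On arrays 2 and 3 CTSS had 0.45 and 0.89 and the macrophage sum 1.25 and 0.67.

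How each gene stood under other processing is shown by the plot of the 6 cathepsins under each alternative. Centring each array on its median in place of loess moved the median of all genes to 0.43, and the cathepsin median to 1.06, which is 0.62 above the median of all genes compared with 0.46 with loess. With it the share of all calls that were higher in Cy5 went from 59.3% to 93.4%. On its brightest probe CTSF had means of 1.32 to 1.36 with all 4 arrays under the alternatives that used loess or the scanner's own dye normalization, and averaged over its 3 probes it had 1.02.

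**Figure D5:**
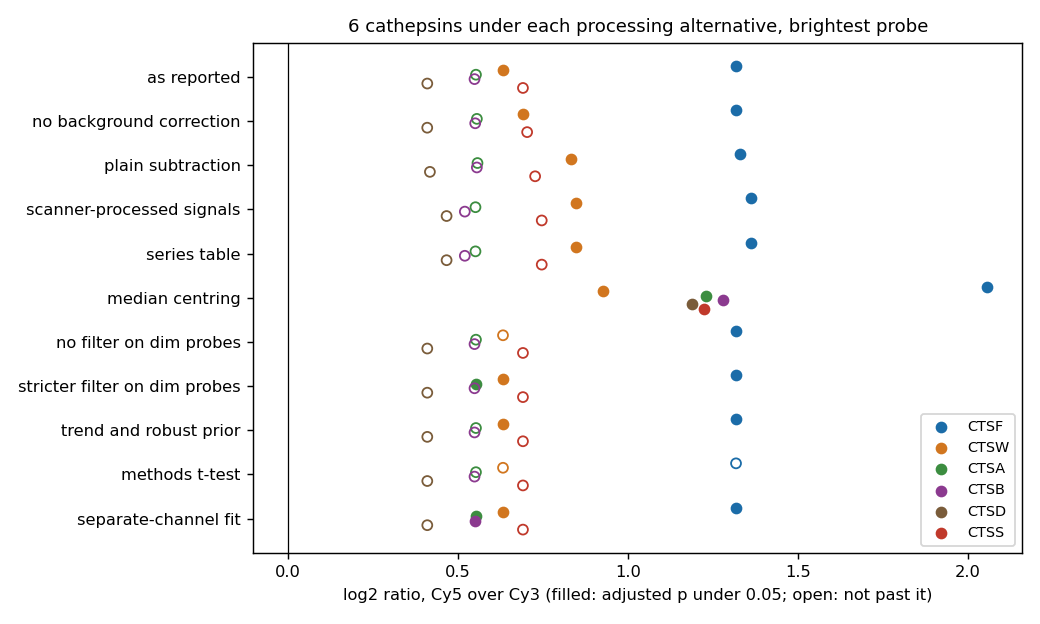
The horizontal axis gives the log2 of Cy5 over Cy3 on the brightest probe of 6 cathepsins under the reported processing and each alternative with all 4 arrays (rows), with filled points at an adjusted p under 0.05. CTSF was filled in every row except the methods' t-test, and every gene lay farthest to the right with median centring.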

How the data were processed

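Muscle RNA of 4 HER bulls and 4 HF bulls was measured on 4 dual-colour arrays of 1 slide, which left no batch to block. The deposited intensity values were written by the scanner software, Feature Extraction 10.7.3.1, and the median signal and median local background of each spot, uncorrected per the file headers, were used. The log10 ratios of Cy5 over Cy3 in the deposited series table were the scanner's, from background-subtracted and lowess-normalized signals. The design was annotated against Btau_3.1, so no coordinates are given, and genes were named through RefSeq accessions.

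The cathepsins, the gene lists and the tests were chosen with earlier results of these data known. Named genes were all 10 cathepsins with every probe, other cathepsins and cystatins, up to 4 called genes per direction of each lysosomal list, TFEB, and the first 3 markers of a list. Beyond this rule, TFE3, MITF and FLCN were named as the tested genes that govern lysosome formation. FIBP was named after its position was seen. COL1A1, COL3A1 and the lymphocyte markers past the first 3 were named after their values were seen.

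Background was corrected by normexp (offset 50). Arrays were normalized by loess with control and outlier spots at weight 0, outlier spots were dropped, and replicate spots of a probe were averaged. Probes had to be well above background in 1 channel on all 4 arrays, with values on at least 3. Log2 ratios were tested against 0 by lmFit and eBayes of limma 3.58.1 (R 4.3.3, two-sided, Benjamini-Hochberg over 32608 probes, adjusted p under 0.05). Levels per bull and summed marker levels were taken after Aquantile scaling between arrays. The code was checked on simulated data. Alternatives were the series table, the signals as processed by the scanner, plain subtraction or no correction of background, median centring, a separate-channel fit, a stricter filter or none for dim probes, the t-test of the study's methods, a robust prior with an intensity trend, the mean over all probes, leaving out each array and, added after seeing the data, leaving out the probes of the CTSV locus.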

Additional observations from a re-analysis of the deposited data

Results flagged for a closer look

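In 5 of 96 groups of 4 values, 1 value lay so far from the others that its gap, divided by the range, passed the 95% critical ratio of Dixon's test, and chance marks about 1 group in 20. The CTSW probe A_73_P385136 had a log2 ratio of 0.54 on array 4, where the other arrays gave -0.23 to -0.15, and its mean over all 4 was 0.00. Other such values were those of bulls of array 3: the Cy5 bull on CTSF probe A_73_P434446 had a log2 level of 7.68 beside 6.85 to 6.97 in the other Cy5 bulls, the Cy3 bull on CTSF probe A_73_P297901 had 9.89 beside 9.33 to 9.42, and the Cy5 bull on CTSD probe A_73_P061766 had 10.61 beside 9.77 to 9.91. On CTSH probe A_73_P292736 the Cy5 bull of array 4 had 8.37 beside 7.85 to 7.91.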

How the results depend on the processing

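The 4 called cathepsin probes, the 12 past the methods criterion, the 1 called lysosomal gene and the cathepsin median of 0.48 all came out higher in Cy5 under every alternative that gave calls. With median centring the values were 20, 23, 51 and 1.06, against a median of all genes that had moved to 0.43. There 30.7% of all tested probes were called higher in Cy5. In either direction 10725 of all 32608 probes were called and 13501 passed the criterion. The methods' t-test gave 0 called cathepsin probes and 0 called lysosomal genes after adjustment, with 0 of all 32608 probes called, and 7 cathepsin probes past its criterion before it. The lysosomal genes called were 2 with the intensity trend and robust prior and 6 with the separate-channel fit. Of all tested probes, 2.99% and 5.33% were called higher in Cy5 by these fits. Leaving out each array left 0 to 1 cathepsin probes called, 7 to 13 past the criterion, 0 lysosomal genes called and medians of 0.40 to 0.56. Among all 32608 probes these fits gave 5 to 115 calls and 4157 to 5419 past the criterion in either direction. The lowest criterion count came without array 3. Means near 0 changed sign: CTSH (-0.02) was 0.072 with the mean over all probes, 0.61 with median centring and -0.19 to 0.17 when single arrays were left out, CTSK was -0.0041 with the mean over all probes, and CTSL (-0.02) was 0.60 with median centring and -0.15 to 0.049 when single arrays were left out. The cause was not tested. With the probes of the CTSV locus left out the counts stayed at 4 and 12. Replicate numbers name arrays on which both breeds were hybridised together, so every within-array ratio is paired, and the separate-channel fit kept the array as a block. Dim probes have ratios drawn toward 0 by the offset, and signal over background limits A_73_P434446, A_73_108526, A_73_113548 and A_73_P318696.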
